A study of Mus musculus with 4 samples.

Results

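The nuclear genes of oxidative phosphorylation were followed in mouse platelet RNA. Members were the protein-coding genes whose names mark them as parts of respiratory complexes I to IV or of ATP synthase (complex V), that is names starting with Ndufa, Ndufb, Ndufc, Ndufs, Ndufv, Uqcr, Cox4 to Cox8 or Atp5, together with Sdha, Sdhb, Sdhc and Sdhd. The rule used names and no measured value. It found 88 genes of 17995 listed in either deposited table, 88 of 16467 genes in the table of WT and cKO and 87 of 16180 in the table of Young and Old, where Cox6a2 is not listed. Complex I had 44 members (7 core subunits, 29 accessory subunits and 8 assembly factors), complex II 4, complex III 8, complex IV 15 and complex V 17. Of the 88, 75 encode structural subunits of the common enzymes and 13 are assembly factors, tissue isoforms or other factors. Ndufa4, named for complex I, was placed with complex IV, of which it is a subunit.

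The study sequenced total RNA of platelets, the anucleate cell fragments shed by megakaryocytes, in 4 libraries. WT was a pool of wild-type littermates at 3 months of age, and cKO a pool of littermates at 3 months labelled as a platelet-specific conditional knockout of HuR, the RNA-binding protein encoded by Elavl1. Young and Old were pools of wild-type mice at 3 and 24 months. All mice were male, the platelets of 7 mice made up each library, and no group had a second library. Neither the Cre line nor any sort or gate of the platelets is stated in the labels. The label check on Elavl1 gave 876 reads (WT), 1481 (cKO), 621 (Young) and 527 (Old), so the library labelled cKO was not the lower one for Elavl1, and every direction below is one of that library and not of the loss of HuR. A count per gene cannot show whether an exon was deleted.

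Each library held 17702341 to 18472149 reads. A ratio is given with an exact 95% interval that covers counting error between 2 libraries; how far pools of mice differ is not in it, so no difference has a replicate check. The words rose and fell are kept for genes past a size rule: 100 or more reads in 1 of the 2 libraries, and an interval that stays at least 2-fold away from 1. In bulk RNA, fewer cells of a type and less RNA per cell cannot be told apart. Of the 10 platelet markers, including Itga2b and Pf4, each was present in every library, with a summed level of 46790 to 52230 RPKM (reads scaled to gene length in kilobases and to library size).

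Oxidative phosphorylation passes electrons from NADH through complex I, or from succinate through complex II, to ubiquinone, then through complex III and cytochrome c to complex IV, which reduces oxygen. Complexes I, III and IV pump protons across the inner mitochondrial membrane, and ATP synthase uses the gradient to make ATP. Most subunits are nuclear genes translated in the cytosol, while a few, among them the catalytic subunits of complex IV, are encoded by mitochondrial DNA. Platelets keep functional mitochondria and use respiration beside glycolysis.

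Promoters were searched because the nuclear subunits are known as targets of the factors NRF1 and GABP. RefSeq promoters (GRCm38.p6, 250 bases before to 50 after the start) matched 72 of the 88 members with 77 promoters, and were compared with all 32851 promoters of that length. The NRF1 palindrome, GCGCA, T and GCGC in a row, was in 9.09% of member promoters and 0.971% of all promoters. With any base in place of that T, the palindrome included, the motif was in 26.0% (20 of 77, from 19 members) and 4.6%. The ETS-family motif CCGGAAG, which GABP can bind, was in 23.4% and 8.86%. The YY1 motif AAGATGGC was in 13% against 2.75%, the ERR motif TNAAGGTCA in 3.90% against 1.28%, and TATAAA in 7.79% against 13.6%. All motifs were read on both strands, and the median GC content was 58.3% in member promoters and 52.7% in all. A match describes letters and shows no binding.

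The stretches below show these motifs upstream of members described later, in capitals, read 5′ to 3′ on the strand of the gene and free of any exon annotated in GENCODE M21. Atp5e (chr2:174464112-174464231, minus strand), Uqcr11 (chr10:80406831-80406921, minus strand) and Sdhd (chr9:50603850-50603909, minus strand) carry the ETS motif, which starts 102, 66 and 46 bases before the RefSeq start site and reads as its reverse complement in Atp5e and Sdhd. Cox6a1 (chr5:115349009-115349126, minus strand) carries the NRF1 motif starting at 162 and 117 bases before the start site, Ndufa11 (chr17:56717686-56717761, plus strand) the palindrome at 60 bases and Ndufs5 (chr4:123718207-123718316, minus strand) the form with a free base at 98 bases.
Atp5e: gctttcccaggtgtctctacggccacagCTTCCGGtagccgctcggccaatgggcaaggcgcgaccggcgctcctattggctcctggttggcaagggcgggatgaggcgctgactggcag
Uqcr11: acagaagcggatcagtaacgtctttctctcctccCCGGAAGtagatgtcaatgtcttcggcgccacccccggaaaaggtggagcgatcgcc
Sdhd: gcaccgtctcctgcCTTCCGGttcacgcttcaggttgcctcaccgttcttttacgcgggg
Cox6a1: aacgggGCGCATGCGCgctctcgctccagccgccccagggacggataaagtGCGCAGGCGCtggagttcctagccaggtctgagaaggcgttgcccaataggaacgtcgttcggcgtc
Ndufa11: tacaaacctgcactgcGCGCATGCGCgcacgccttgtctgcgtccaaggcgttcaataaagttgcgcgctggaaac
Ndufs5: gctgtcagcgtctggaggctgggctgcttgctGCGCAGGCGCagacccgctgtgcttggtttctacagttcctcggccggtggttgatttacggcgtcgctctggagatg

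The 88 members together held 0.334% of WT reads (Wilson 95% interval 0.331% to 0.337%). In the library labelled cKO they held 0.298% (0.295% to 0.3%), in Young 0.343% (0.341% to 0.346%) and in Old 0.345% (0.342% to 0.348%). The share was lowest in the library labelled cKO, and that of Young and Old overlapped. Per kilobase of the authors' gene length, complex IV stood highest, with Cox8a, a small membrane subunit, at 238 RPKM in WT, Cox6b1, a subunit on the intermembrane side, at 206 and Ndufa4 at 187. Atp5e, the epsilon subunit of the F1 head of ATP synthase, followed at 186 RPKM in WT, ahead of Cox7a2l, a factor that joins complexes III and IV into supercomplexes, at 184, and Cox5a, a matrix-facing subunit of complex IV, at 179. At the other end stood the complex I subunit Ndufb2, with 4 reads in WT and 0.0404 RPKM, Atp5g1 at 1.04 RPKM, Uqcrb at 2.27, Sdhc at 3.02 and Cox5b at 3.83, each the lowest subunit of its complex in WT.

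**Figure D1:**
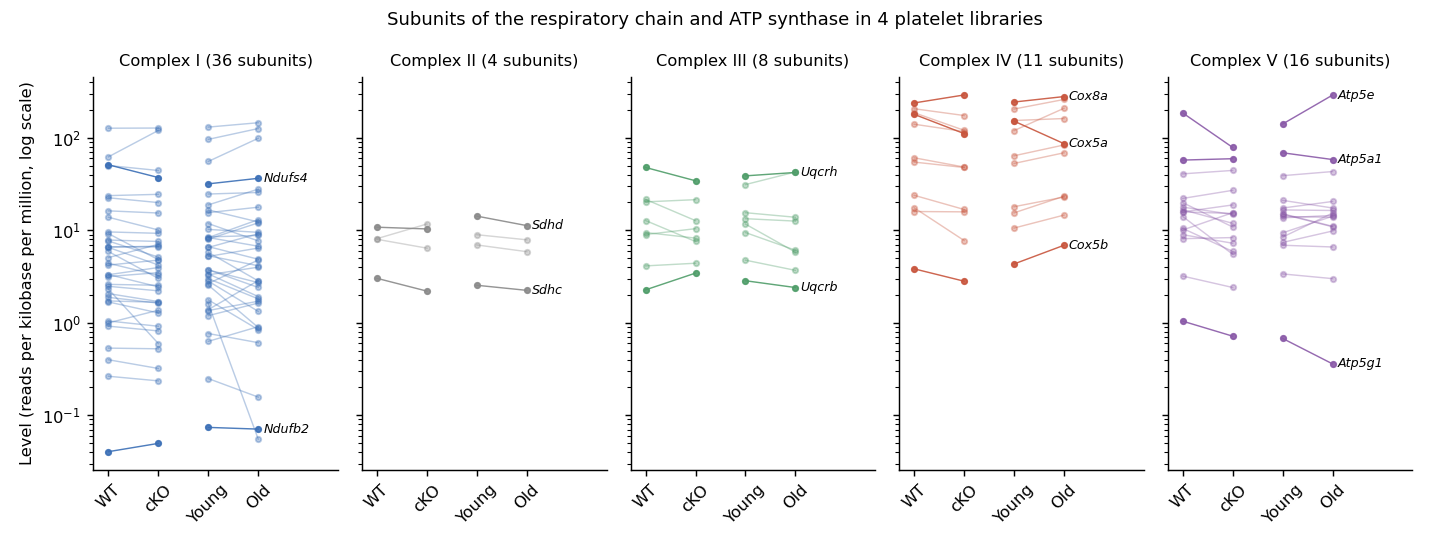
Level of each structural subunit (y axis, RPKM, log scale) in the 4 libraries (x axis), 1 panel per complex. Each point is 1 gene in 1 library, and lines join the 2 libraries of 1 deposited table. Atp5e goes from 186 RPKM in WT to 78.7 in the library labelled cKO and from 141 in Young to 290 in Old, while Cox5a is lowest in Old, at 86.5.

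The order at the top depended on the length used, because the authors' gene length counts all annotated exon bases, retained introns included. Atp5e has 1756 bases by that length and 421 in its first-numbered coding transcript. Over such transcript lengths Atp5e stood first in WT, followed by Cox5a, Ndufa4, Cox6b1 and Cox8a. At the low end, Sdhd (10.79 RPKM) took the place of Sdhc (12.05) as the lowest of complex II in WT. The lowest subunit of each other complex stayed the same. The sum over the 36 complex I subunits was 469 RPKM (WT), 487 (library labelled cKO), 509 (Young) and 604 (Old). Complex IV summed to 1127, 952, 1038 and 1216 RPKM over 11 subunits and complex V to 448, 327, 398 and 545 over 16, in the same order of libraries. Complex III summed to 127, 103, 128 and 129 RPKM over 8 subunits, and complex II to 29.9, 30.6, 32.7 and 27.2 over 4.

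The sum of complex V followed its epsilon subunit. Without Atp5e it was 262 RPKM (WT), 248 (library labelled cKO), 257 (Young) and 255 (Old). The library labelled cKO stood at 0.729 of the WT sum with Atp5e and 0.945 without it. Old stood at 1.37 times the Young sum with Atp5e and 0.994 without it. For complex IV the gene of weight was Cox5a: Old over Young was 1.17 with it and 1.27 without it.

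WT and the library labelled cKO come from littermates, and their comparison asks which transcripts differ with the label. Most oxidative phosphorylation genes lay slightly below WT, and 2 subunits of ATP synthase, Atp5e and Atp5mpl, fell (Atp5e alone when libraries were scaled to their totals). In all, 62 members held 100 reads in WT or the library labelled cKO. Of these 0 rose (2.52% of all 6273 such genes) and 2 fell (1.71% of all genes). Over the 81 members with 20 or more reads in sum the median log2 ratio was -0.17, against -0.01 over all genes, and 55 of the 81 had a ratio below 1. The interval lay wholly below 1 for 30 of the 62 members (33.3% of all genes) and wholly above 1 for 12 (32.7%). At a bound of 1.5-fold, 2 members were higher (7.24% of all genes), Cox6b2 and Ndufa2, and 7 lower (6.28%), with Atp5c1, Atp5j2, Cox5a, Cox7c and Ndufa6 beside Atp5e and Atp5mpl.

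Atp5e (chromosome 2, 174461072 to 174464105, minus strand, mm10) held 5744 reads (WT), 2474 (library labelled cKO), 4763 (Young) and 8941 (Old). It was lowest in the library labelled cKO and highest in Old, and the 3-month wild-type libraries lay between them. Atp5e fell to a ratio of 0.423 of WT (0.404 to 0.444). Against Young the same library gave 0.570 (0.542 to 0.598), which does not pass the size rule. Atp5mpl (chromosome 12, 111961375 to 111966977), a small protein of the membrane part of ATP synthase, held 302 reads (WT), 120 (library labelled cKO), 173 (Young) and 210 (Old). Here WT was the high library, and the other 3 lay closer together. Atp5mpl fell to 0.390 of WT (0.313 to 0.484), and its ratio to Young was 0.761 (0.598 to 0.966). It did not pass the size rule with library totals as the scale.

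In the authors' deposited table, Atp5mpl had the lowest adjusted p of the members for this comparison, 0.0555, and 0 of 88 members were under 0.05, against 624 of 16467 genes (3.79%). Each such p-value sets 1 library against 1 other, by a test that no source used here names.

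Complex IV lay mostly below 1 in this comparison. Of its 11 subunits, 10 had a ratio below 1 (9 with library totals or median-of-ratios scaling, where Cox6c lay above 1). The interval lay below 1 for 9 (33.3% of all genes), and the median log2 ratio was -0.33. Cox7c, a small membrane subunit, held 349 reads (WT), 157 (library labelled cKO), 230 (Young) and 290 (Old). As for Atp5mpl, WT was its high library. Its ratio to WT was 0.442 (0.364 to 0.535), just short of the size rule. Cox5a (chromosome 9, 57521274 to 57532426) held 6637 reads (WT), 4181 (library labelled cKO), 6128 (Young) and 3193 (Old), with a ratio of 0.619 (0.595 to 0.643) to WT. Cox5a was low in the library labelled cKO and lower still in Old. Among the 11, Cox8a was the exception, with 2286 reads (WT) and 2836 (library labelled cKO) and a ratio of 1.22 (1.15 to 1.29). Outside the 11, the tissue isoform Cox6b2 (1.98) and the supercomplex factor Cox7a2l (1.26) also lay above 1.

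The other complexes were mixed. In complex V the 4 peripheral stalk subunits, which hold the F1 head still against the turning rotor, all lay below 1 (log2 ratios -0.49 to -0.26). Of the c-ring genes, Atp5g2 and Atp5g3 lay above 1 and Atp5g1, with 90 and 63 reads, below it (0.688, 0.490 to 0.960). A pseudogene at 99.8% identity to Atp5g1 held 35 reads in WT and 64 in the library labelled cKO. The ratio of Atp5g1 can thus depend on how shared reads were counted. Among the F1 subunits, Atp5c1, the gamma subunit of the central shaft, went from 669 to 371 reads (ratio 0.545, 0.479 to 0.619) and Atp5d, the delta subunit beside epsilon at the foot of that shaft, from 342 to 535 reads (1.54, 1.34 to 1.77). The catalytic beta subunit gene Atp5b had a ratio of 1.09 (1.04 to 1.14), and its partner Atp5a1 one of 1.03 (0.984 to 1.09), so the genes of the F1 head did not share a direction. Atp5j shares 397 exon bases with Gabpa on the opposite strand, and whether reads were counted by strand is not stated.

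Complex I had a median log2 ratio of -0.17 over 35 subunits, with 26 below 1. Ndufa2, an accessory subunit, held 627 reads (WT), 1231 (library labelled cKO), 1059 (Young) and 1266 (Old). WT was the low library, and the ratio was 1.93 (1.75 to 2.13). Ndufb9, another accessory subunit, had the next highest ratio, 1.39 (1.05 to 1.83). At the other end Ndufs8, a core subunit that carries iron-sulfur clusters, held 100 reads (WT), 52 (library labelled cKO), 107 (Young) and 48 (Old), and a ratio of 0.511 (0.358 to 0.721). Ndufa6, an accessory subunit, had a ratio of 0.521 (0.426 to 0.636). Of the assembly factors, proteins that help build complex I and are not part of it, Ndufaf3 alone held 100 reads, at 105 (WT) and 182 (library labelled cKO), a ratio of 1.7 (1.33 to 2.19).

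In complex II the flavoprotein subunit gene Sdha held 590 reads (WT), 864 (library labelled cKO), 711 (Young) and 572 (Old). It was highest in the library labelled cKO, at a ratio of 1.44 (1.29 to 1.6) to WT. The iron-sulfur subunit Sdhb (0.802, 0.677 to 0.948) and the membrane anchor Sdhc (0.727, 0.574 to 0.919) lay on the other side of 1, and the anchor Sdhd had a ratio of 0.957 (0.794 to 1.15), not distinct from 1 at this depth. In complex III, Uqcr10 (0.589, 0.471 to 0.733) and Uqcrq (0.593, 0.504 to 0.696), both small accessory subunits, were the lowest. The highest with 100 reads were Uqcrfs1, the Rieske iron-sulfur protein (1.16, 0.960 to 1.39), and the core subunit Uqcrc1 (1.07, 0.910 to 1.25), whose intervals include 1.

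**Figure D2:**
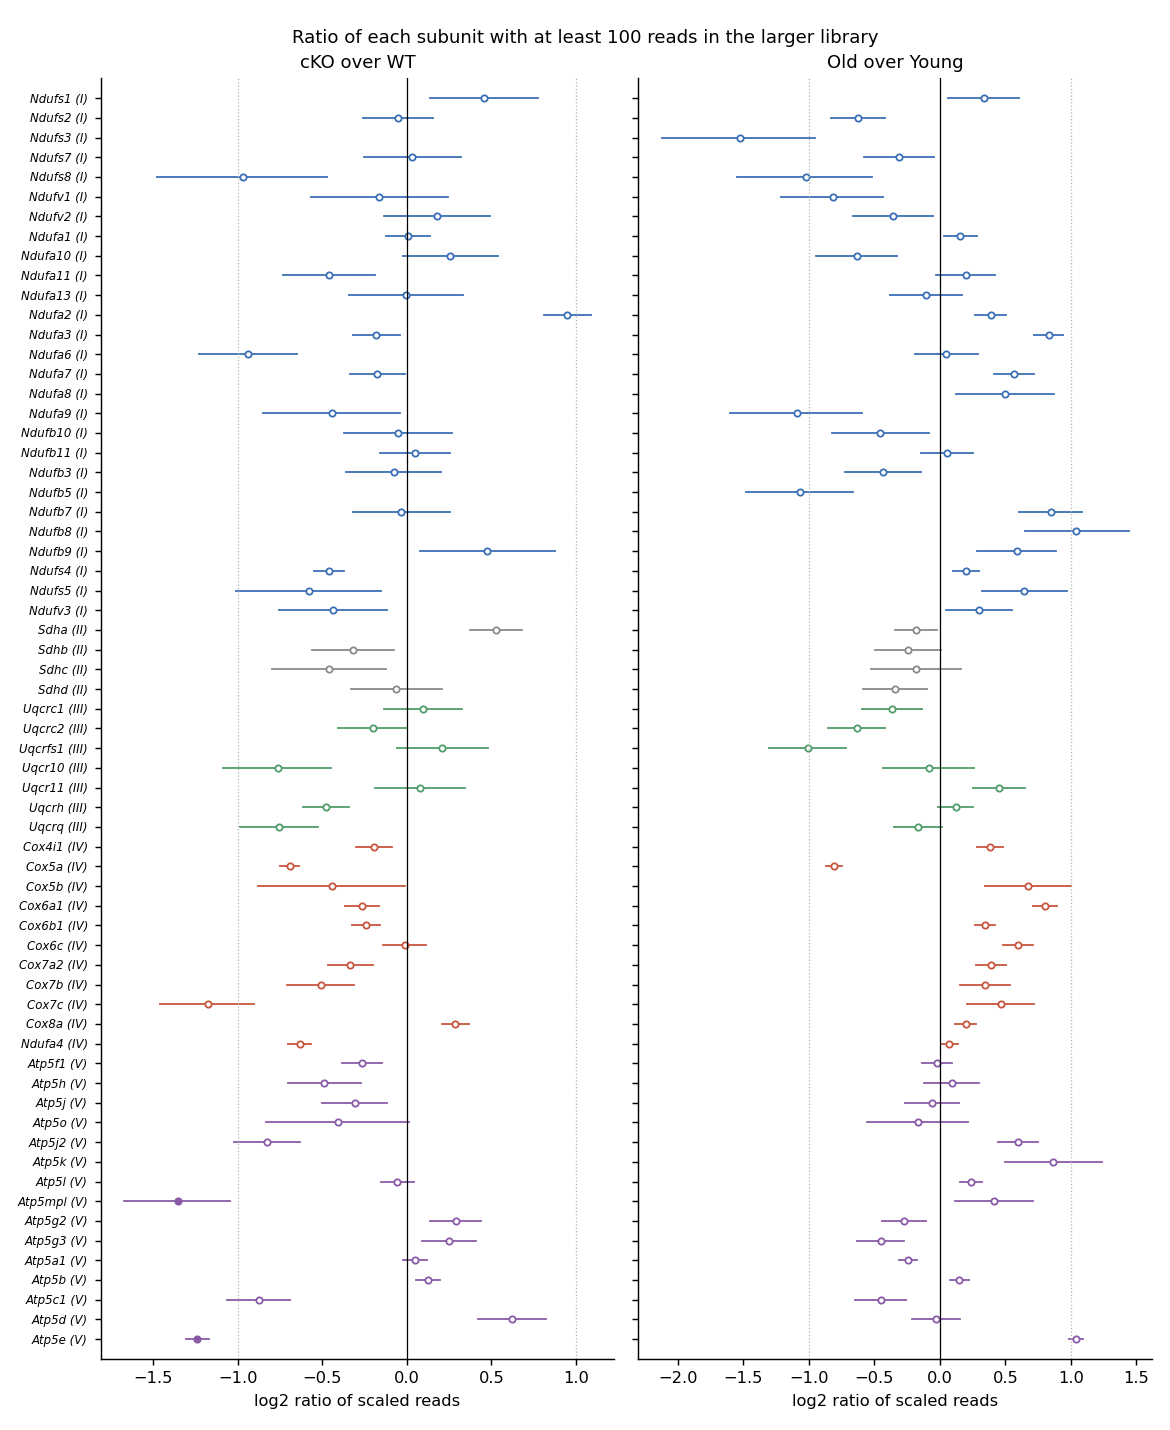
Log2 ratio (x axis) of each structural subunit with 100 or more reads in either library (y axis, complex in brackets), for the library labelled cKO over WT on the left and Old over Young on the right. Bars are exact 95% intervals for counting error, filled points passed the size rule and dotted lines mark 2-fold. Atp5e and Atp5mpl are the filled points on the left, and the right panel has none. The complex IV subunits drawn lie mostly left of 0 in the left panel and, apart from Cox5a, right of 0 in the right panel. Cox6b2 and Cox7a2l, not counted as structural subunits, are not drawn.

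Markers of other cells moved in the same comparison. Of 11 erythroid markers, 9 rose in the library labelled cKO and 1, Hba-a2, fell. Their summed level was 10490 RPKM (WT), 18590 (library labelled cKO), 24660 (Young) and 14360 (Old), and none was at 0. Of 2 tested T and NK cell markers 1, Gzma, fell. Of 4 tested neutrophil markers and 4 tested monocyte markers 0 passed the size rule, at median log2 ratios of -0.86 and -0.48 for the lists. Of 8 B cell markers 0 passed, at a median of -0.20. Muscle markers, chosen because Cox6a2 and Cox7a1 are muscle isoforms, summed to at most 0.168 RPKM. The part of these cells in the ratios of the oxidative phosphorylation genes was not tested.

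Old was compared with Young to ask which platelet transcripts differ with age. No member passed the size rule, but the complexes split by position: most nuclear subunits of complex IV lay above Young, and most core subunits of complexes I and III below it. Of 67 members with 100 reads in Young or Old, 0 rose (4.26% of all 6519 such genes) and 0 fell (4.3% of all genes). At a bound of 1.5-fold, 5 were higher (10.4% of all genes), namely Atp5e, Cox6a1, Ndufa3, Ndufb7 and Ndufb8, and 5 lower (12.9%), namely Cox5a, Ndufa9, Ndufb5, Ndufs3 and Uqcrfs1. The interval lay above 1 for 30 members (35.6% of all genes) and below 1 for 22 (40.5%). The median log2 ratio of 82 members was -0.03, against -0.06 over all genes.

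In complex IV, 10 of 11 subunits had an interval wholly above 1 (35.6% of all genes), and the median log2 ratio was 0.38. Library totals as the scale lower the median of all genes by 0.157 on the log2 scale. With them, 9 of 11 ratios lay above 1 and Ndufa4 joined Cox5a below it. The interval then lay wholly above 1 for 7 of the 11 and wholly below 1 for 2. Cox6a1, a membrane subunit of complex IV, held 1734 reads (WT), 1469 (library labelled cKO), 1616 (Young) and 2572 (Old). Old stood above the other 3 libraries, and the ratio to Young was 1.74 (1.64 to 1.86). Cox5b, a matrix-facing zinc-binding subunit, had the next highest ratio, 1.59 (1.27 to 2.00), from 132 to 192 reads. Ndufa4, at 1.05 (1.01 to 1.10), had the lowest of the 10.

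Cox5a went the other way, from 6128 reads in Young to 3193 in Old, a ratio of 0.571 (0.546 to 0.596), and 0.482 (0.462 to 0.503) to WT. It was the single one of the 11 complex IV subunits below 1 and among the 2 most abundant members by transcript length in WT. The tissue isoform Cox6b2, outside the 11, also lay below 1, at 0.723 of Young. Against WT in place of Young, 0 of 65 members rose (4.54% of all genes) and 0 fell (4.22%), the interval lay above 1 for 27 (36.6%) and below 1 for 22 (40.9%), and 7 of the 11 complex IV subunits lay above 1, with Cox5a, Ndufa4, Cox7b and Cox7c below it.

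The 10 core subunits of complexes I and III among the members carry redox centres or form the main body of these enzymes. In Old, 9 of the 10 had an interval wholly below 1 (40.5% of all genes), and the median log2 ratio was -0.63. Under each of the 3 scalings 9 of 10 lay below 1. Ndufs3 (chromosome 2, 90894634 to 90904827) held 66 reads (WT), 65 (library labelled cKO), 107 (Young) and 34 (Old). Young was the high library and Old the low one, with a ratio of 0.348 (0.229 to 0.516). A pseudogene at 98.6% identity to Ndufs3 held 8 reads (WT), 6 (library labelled cKO), 11 (Young) and 16 (Old). The count of Ndufs3 can depend on how shared reads were counted. Uqcrfs1 held 216 reads (WT), 254 (library labelled cKO), 306 (Young) and 139 (Old), and a ratio of 0.497 (0.404 to 0.610). Its reads in Old were below those of the other 3 libraries. Uqcrc2, a core subunit of complex III without a redox centre, had a ratio of 0.644 (0.553 to 0.750). The exception was Ndufs1, the largest iron-sulfur subunit of complex I, at 1.26 (1.04 to 1.52). Cytochrome c1, the other nuclear core subunit of complex III, is encoded by Cyc1, which the name rule does not hold, and Cyc1 had 207 reads in Young and 146 in Old (ratio 0.772).

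Young itself was high for these core genes. WT over Young, which compares 2 pools of 3-month wild-type mice, had 8 of the 10 below 1, 7 with the interval below 1 (30% of all genes), at a median log2 ratio of -0.34. In the same comparison 5 of 10 tested erythroid markers fell, and their summed level had a ratio of 0.426. Its part in these ratios was not tested. Set against WT, Old had 8 of 10 below 1, at a median of -0.34 against -0.06 over all genes. The interval lay below 1 for 4 of the 9 tested, beside 40.9% of all genes. These comparisons share libraries and are values side by side.

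The accessory subunits of complex I were spread to both sides in Old, with 17 of 28 above 1 and 11 below. Ndufb8, an accessory subunit of the membrane arm, held 93 reads (WT), 72 (library labelled cKO), 84 (Young) and 158 (Old), at a ratio of 2.06 (1.57 to 2.72). Old was its high library. Ndufb7, which also sits in the membrane arm, had 379 reads in Old and 231 in Young (1.80, 1.52 to 2.13). Ndufa9, near the ubiquinone site, lay lowest of the accessory subunits with 100 reads, with 114 reads in Young and 49 in Old (0.471, 0.330 to 0.663). The printed stretches with NRF1 motifs include those of 2 accessory subunits, Ndufs5, with 138 reads in Young and 197 in Old (1.56, 1.25 to 1.96), and Ndufa11, with 326 and 341 (1.15, 0.981 to 1.34). Ndufa5, under 100 reads, had 42 (WT), 11 (library labelled cKO), 32 (Young) and 1 (Old), and the ratio of 0.0342 to Young has a counting interval of 0.000840 to 0.205. Of the assembly factors, Ndufaf1 had 33 reads in Young and 6 in Old (0.199, 0.0682 to 0.481), and Ndufaf2 and Ndufaf6 had 10 and 8 reads in Young and 0 in Old, where 3 reads are the limit that a count of 0 allows. Ndufaf3 had 97 and 125 reads (1.41, 1.07 to 1.86). Ndufa5 and the named assembly factors other than Ndufaf3 lie outside the naming rule and were chosen after their values were seen.

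**Figure D3:**
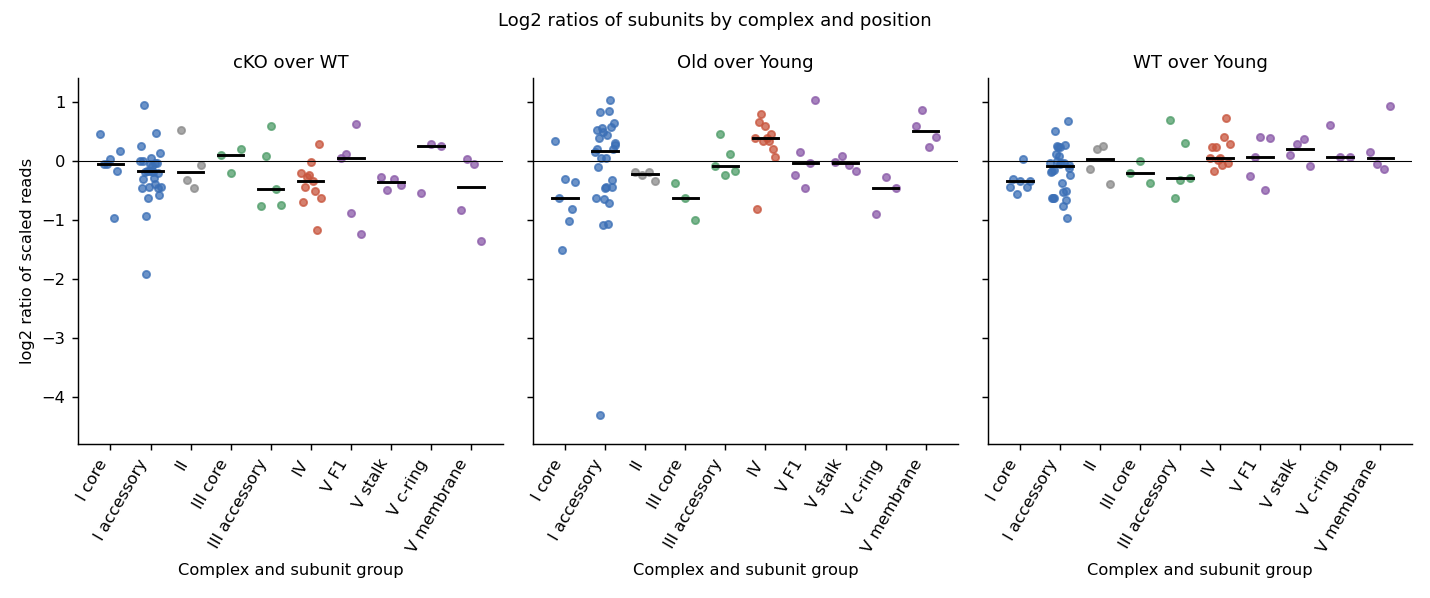
Log2 ratios (y axis) of structural subunits with at least 20 reads over both libraries, by complex and position in it (x axis), in 3 comparisons. Each point is 1 subunit and the black line is the median of its group. In Old over Young the medians are -0.62 for complex I core, -0.63 for complex III core and 0.38 for complex IV, and with library totals as the scale 1 more complex IV subunit, Ndufa4, lies below 0.

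ATP synthase also split by position in Old. All 4 membrane subunits listed had an interval above 1 (35.6% of all genes), with a median log2 ratio of 0.50. With library totals, 4 ratios and 2 intervals lay above 1. Against WT in place of Young, the interval lay above 1 for 3 of the 4 (36.6% of all genes). It lay below 1 for 1, Atp5mpl (40.9%). Atp5k, a membrane subunit of the dimer interface, held 88 reads (WT), 92 (library labelled cKO), 100 (Young) and 166 (Old) (1.82, 1.41 to 2.35 to Young). Old was its only high library. Atp5l, another membrane subunit, has 9 copies at 95% identity or more, 8 of them pseudogenes. Reads of the 5 copies listed in the deposited tables came to 829 (WT), 548 (library labelled cKO), 822 (Young) and 984 (Old), so its own count of 2158 in Young and 2320 in Old depends on how shared reads were counted. The 3 c-ring genes lay below 1, Atp5g2 at 0.827 (0.736 to 0.929), Atp5g3 at 0.731 (0.644 to 0.828) and Atp5g1 at 0.530 (0.334 to 0.827) on 64 and 31 reads. The peripheral stalk genes had log2 ratios of -0.17 to 0.09 with every interval including 1.

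Atp5e was the highest of complex V in Old, at 2.06 (1.98 to 2.13) over Young, a bound just short of 2-fold. It passed at median-of-ratios scaling. Over WT the ratio was 1.56 (1.51 to 1.61). Atp5c1, which sits beside it in the rotor, had 548 reads in Young and 366 in Old (0.731, 0.639 to 0.836), on the other side of 1. Atp5a1 had 4156 and 3207 reads (0.845, 0.807 to 0.885), and Atp5b 3176 and 3214 (1.11, 1.05 to 1.16). Within the F1 head, where the assembled enzyme holds 1 epsilon, 1 gamma and 1 delta subunit, the mRNA ratios of these genes lay on both sides of 1.

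All 4 complex II genes lay below 1 in Old under all 3 scalings, beside 52.7% of all genes with 20 reads in sum. Their ratios were 0.881 (0.788 to 0.985) for Sdha, 0.846 (0.709 to 1.01) for Sdhb, 0.881 (0.693 to 1.12) for Sdhc and 0.790 (0.667 to 0.934) for Sdhd. The intervals of Sdhb and Sdhc include 1, and 2 of the 4 intervals lay below 1 (40.5% of all genes). Against WT in place of Young, 3 of the 4 genes lay below 1 and Sdhd above it. In complex III, Uqcr11 had the highest ratio, 1.37 (1.19 to 1.57), from 385 to 481 reads, followed by Uqcrh, the hinge protein beside cytochrome c1, at 1.09 (0.992 to 1.19).

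The authors' deposited table gives an adjusted p under 0.05 in Old over Young to 5 of 87 members, against 2004 of 16180 genes (12.4%). They were Ndufa5, Ndufaf1, Atp5s, Ndufs3 and Ndufaf2, of which Ndufs3 alone held 100 reads in either library. The lowest adjusted p was 0.000194, of Ndufa5.

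By gene length, the members in Old had no single direction. Members with a gene length under 1000 bases had a median log2 ratio of 0.37 (14 members) against 0.05 over all genes of that length, and those of 2000 to 4000 bases one of -0.30 (18 members) against -0.02. Between these lengths, from 1000 to 2000 bases, the median was 0.07 (27 members) against 0.05, and from 4000 bases up 0.06 (8 members) against -0.09. Over the 67 members Spearman's rho of the ratio with gene length was -0.253, and over all 6514 genes -0.065, both across genes of the same 2 libraries and given as a description. Its part in the split between complex IV and the core subunits was not tested.

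**Figure D4:**
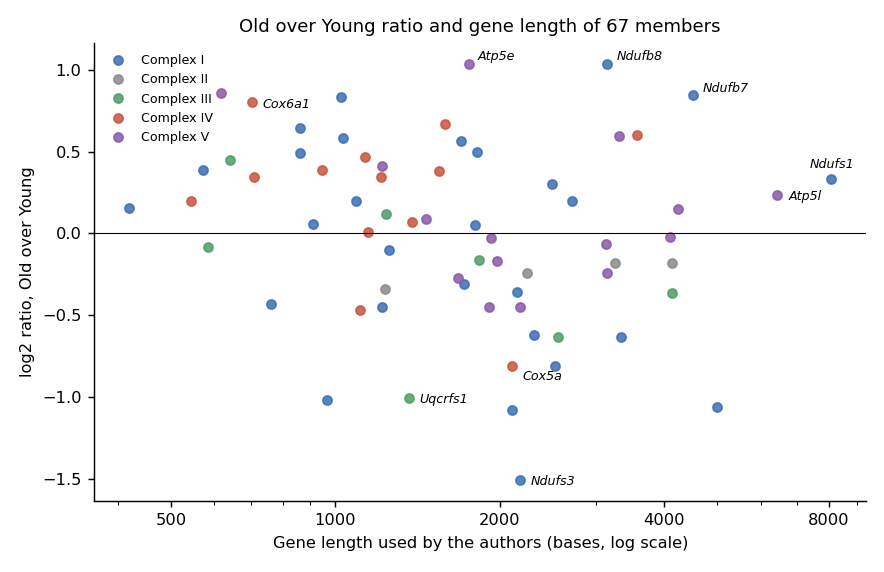
Log2 ratio of Old over Young (y axis) against the gene length of the authors' table (x axis, bases, log scale) for the 67 members with 100 or more reads in either library, coloured by complex. The 14 members under 1000 bases have a median of 0.37, with Ndufs8 the lowest of them, and Ndufs3, at 2178 bases, is the lowest of all 67.

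Other cells also differed between these libraries. Of 11 listed neutrophil markers 10 held 100 reads and all 10 rose in Old. Their summed level was 39.6 RPKM in Young and 1204 in Old, with 93.8 in WT and 50.7 in the library labelled cKO. Camp and Ltf were at 0 in Young. Of 8 B cell markers 5 fell in Old, from a sum of 61.9 RPKM to 21. Of 6 tested monocyte markers 3 rose, Ccr2, Cd14 and Csf1r, with Cd14 at 0 in Young, at a median log2 ratio of 0.89 for the list. The summed level of the 9 listed, in which the most abundant markers weigh most, went from 2664 to 2310 RPKM. Of 4 tested T and NK cell markers 1, Gzma, fell. Of 10 tested erythroid markers 1, Hbb-bt, fell, at a median log2 ratio of -0.54 for the list and a ratio of 0.583 of the summed levels. Of 10 platelet markers Tubb1, the platelet tubulin, rose, at a median log2 ratio of 0.65 for the list. The part of these cells in the ratios above was not tested.

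WT over Young shows how far 2 wild-type pools of the same age lay apart across the separately scaled tables, on the recovered reads of genes in both. Of 66 members 0 rose (0.439% of all 6373 genes) and 0 fell (0.565%), and at a bound of 1.5-fold 2 were higher (2.59%), Atp5mpl and Ndufs4, and 0 lower (2.73%). The median log2 ratio was -0.06 over 82 members and -0.00 over all genes. The standard deviation of log2 ratios over the 74 structural subunits with 20 reads was 0.38, beside 0.48 when the library labelled cKO is set over WT and 0.75 when Old is set over Young. Over all genes with 20 reads it was 0.76, 0.88 and 1.26 in the same order. The 0.75 includes Ndufa5, a complex I subunit under 100 reads, at a log2 ratio of -4.31. By complex, the standard deviation in Old over Young was 0.95 for complex I and 0.07 to 0.50 for the others.

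Atp5mpl had the highest ratio of the members, 1.91 (1.58 to 2.31), followed in complex IV by Cox7c at 1.66 (1.4 to 1.97) and in complex I by Ndufs4, an accessory subunit that carries no redox centre, at 1.61 (1.51 to 1.71) on 2436 reads in WT and 1656 in Young. Uqcr10 had a ratio of 1.62 (1.31 to 2.00). Atp5mpl, Cox7c and Uqcr10 were thus high in WT against both 3-month libraries, and their ratios for the library labelled cKO over Young were 0.761, 0.749 and 0.973. Among members with 100 reads the lowest were Ndufb5 at 0.591 (0.454 to 0.767), Ndufb9 at 0.632 (0.484 to 0.822), Ndufa2 at 0.647 (0.585 to 0.715) and Ndufa13 at 0.649 (0.525 to 0.799), all of complex I. The lowest of the other complexes were Uqcr11 at 0.650 (0.549 to 0.767), Cox6b2 at 0.680 (0.614 to 0.753), Atp5d (0.715, 0.622 to 0.820) and Sdhd (0.759, 0.639 to 0.899), while Cox7b (1.33, 1.17 to 1.52), Atp5c1 (1.33, 1.19 to 1.5) and Ndufa7 (1.19, 1.07 to 1.33) lay above 1.

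With Young in place of WT as the reference of the library labelled cKO, 0 of 66 members rose (2.07% of all genes) and 0 fell (0.793%), the median log2 ratio was -0.16 against -0.00 over all genes, and 60 of 83 lay below 1. At a bound of 1.5-fold 1 was higher (6.78%), Ndufaf3, and 2 lower (3.7%), Atp5e and Uqcrq. Complex IV had 9 of 11 below 1 in that comparison.

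Several subunits have paralogs that differ between tissues. Cox6b2, known as the testis form of the subunit encoded by Cox6b1, is located on chromosome 7 (4751792 to 4753094, minus strand) and held 617 reads (WT), 1246 (library labelled cKO), 991 (Young) and 654 (Old). The library labelled cKO was highest, and WT and Old were lowest. Its ratio was 1.98 (1.80 to 2.19) to WT and 1.38 (1.27 to 1.5) to Young, and in Old it was 0.723 (0.654 to 0.798) of Young and 1.06 (0.95 to 1.19) of WT. Of the reads of both paralogs, Cox6b2 held 19.4% in WT (Wilson interval 18.0% to 20.8%). The library labelled cKO had 36.1% (34.5% to 37.7%), Young 26.2% (24.9% to 27.7%) and Old 16.8% (15.7% to 18.0%). WT and Old overlapped in counting error, and each of the others stood apart.

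The muscle isoforms were close to absent. Cox7a1 held 3 reads (WT), 3 (library labelled cKO), 7 (Young) and 8 (Old), which is at most 0.599% of the reads it shares with Cox7a2. Cox6a2 held 2 reads (WT) and 2 (library labelled cKO), beside 1734 and 1469 of Cox6a1. Cox7a2l held 3716 reads (WT), 4757 (library labelled cKO), 4190 (Young) and 3853 (Old) (1.26, 1.2 to 1.31 over WT, and 1.01, 0.964 to 1.05 in Old over Young). Atp5s, named for ATP synthase and no structural subunit of it, had 7, 10, 12 and 0 reads in the same order of libraries.

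The c subunit of ATP synthase is made from 3 genes with the same mature protein. Atp5g2 held 48.3% (WT), 50.4% (library labelled cKO), 49.3% (Young) and 53.1% (Old) of their reads, and Atp5g3 45%, 45.7%, 46.0% and 43.7%. Atp5g1 made up the rest, 6.67% in WT (5.46% to 8.13%) and 3.21% in Old (2.27% to 4.51%), and its own count can depend on a near-identical pseudogene.

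**Figure D5:**
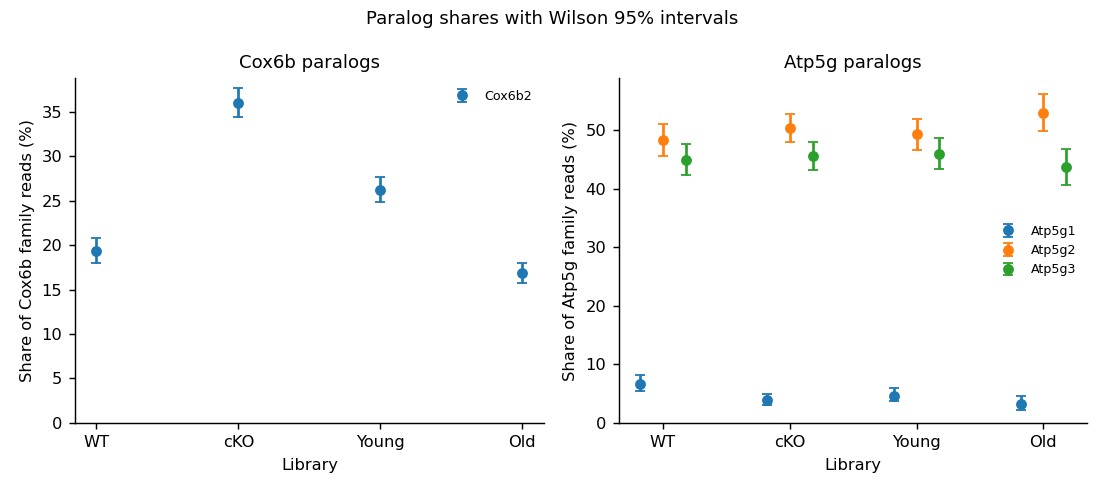
Share of family reads (y axis, percent) of Cox6b2 among Cox6b1 and Cox6b2 (left) and of the 3 c-ring genes (right) in each library (x axis), with Wilson 95% intervals. Cox6b2 holds 36.1% in the library labelled cKO and 16.8% in Old, while Atp5g2 stays between 48.3% and 53.1%.

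Across the 62 members with 100 reads in both comparisons, the ratios of the library labelled cKO over WT and of Old over Young, which share no library, had Pearson's r of -0.106 and Spearman's rho of -0.142. These are across genes and carry no test. Below 1 in the first and above 1 in the second lay 23 members, below 1 in both 18, above 1 in both 10, and above then below 11. Atp5e was 1 of the 23 and Cox5a 1 of the 18.

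The other parts of the pathway were read from lists fixed by gene name. Of the 13 mitochondrially encoded mRNAs, 0 of 11 tested rose or fell in the library labelled cKO, with a median log2 ratio of -0.21. In Old over Young 1 of 10 rose, mt-Co3, from 352 to 1070 reads, and 0 fell, at a median of 0.07. The other mitochondrial complex IV subunits, mt-Co1 (1.93) and mt-Co2 (2.07), had ratios above 1 in Old that did not pass the size rule. In WT over Young 1 of 11 rose, mt-Nd3, and the median was 0.44.

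Cytochrome c (Cycs), the electron carrier between complexes III and IV, held 76 reads (WT), 98 (library labelled cKO), 150 (Young) and 47 (Old). Cycs fell in Old to 0.343 of Young and was the 1 of 10 tested carriers and channels to pass. Ucp2, an inner-membrane carrier, had a ratio of 2.04 in the library labelled cKO, and Slc25a3, the phosphate carrier, 0.837. Vdac1, an outer-membrane channel, had a ratio of 2.00 in Old.

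Of assembly factors outside the name rule, 0 of 11 passed in the library labelled cKO and 1 of 12 in Old, Foxred1, a complex I factor, with 140 reads in Young and 33 in Old. The list had a median log2 ratio of -0.04 and -0.48 in the 2 comparisons. Enzymes of the tricarboxylic acid cycle had medians of -0.07 and -0.24, with 0 of 15 past the size rule in each. Of 9 tested regulators of mitochondrial biogenesis, 0 passed in either comparison, and the medians of the list were -0.14 and -0.42. With WT in place of Young, 2 of 9 tested fell in Old, Sirt1 and Tfam (4.22% of all genes). Tfam, the packaging and transcription factor of mitochondrial DNA, had 130 reads in Young and 46 in Old (ratio 0.387). Nrf1 had 122 and 96 reads and Gabpa 238 and 162.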

How the data were processed

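Platelet RNA of 4 libraries, 1 per group, was analysed. The authors deposited 2 tables, 1 of WT and cKO and 1 of Young and Old, with 1 signal value for each gene in each library. Within a table these are reads brought to the same library size, and dividing them by the worth of 1 read gave whole numbers (to within 0.02) for 99.913% of values or more. Per the file headers, the authors also deposited log2 fold changes with p-values, raw and adjusted, for both comparisons. The submitters' processing notes name build mm10, HISAT2 2.0.5, featureCounts 1.5.0-p3, CASAVA and DESeq2 1.20.0 without their roles. Strand use and the treatment of reads shared between genes are not stated there. Left out were 4 per-sample columns that no sample's labels match.

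TMM in edgeR 4.0.16 (R 4.3.3) scaled the library sizes over all genes for each pair of libraries, and over all 4 libraries for RPKM levels. Because the tables were scaled separately, comparisons across them used 14652 genes present in both, with their recovered reads. A ratio's interval came from the 95% Clopper-Pearson bounds on how a gene's reads divide between 2 libraries (scipy 1.17.1). Reads are amplified and carry no molecular identifiers, so intervals hold counting error and nothing else. No count test was run, since 1 library per group leaves no residual degrees of freedom. Medians of log2 ratios used a pseudocount of 0.5 read. The interval and the size rule were tried on simulated counts that held counting error alone. That trial cannot show how far pools of mice differ. Near-identical copies were sought with blastn 2.17.0 (at least 95% identity over 200 bases) in GENCODE M21 transcripts. Of the 75 structural subunits 23 had such a copy, and their counts can depend on how shared reads were counted.

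Members, lists and comparisons were chosen with earlier results of these data known. Named members were those past the size rule, the 2 highest and 2 lowest ratios per complex and comparison among genes with 100 reads, the 2 most and the 1 least abundant subunit per complex in WT, all complex II genes and all isoforms and other factors. Members named beyond it (Atp5b, Atp5j, Atp5j2, Atp5l, Cox6c, Cox7a2, Ndufa3, Ndufa4, Ndufa5, Ndufa11, Ndufa13, Ndufs1, Ndufs5 and the assembly factors other than Ndufaf3) and Cyc1, Vdac1, Nrf1, Gabpa and Sirt1 were chosen after their values were seen. Alternatives were other scalings, thresholds, pseudocounts and reference libraries, and, added after seeing the data, transcript length and the removal of subunits with near-identical pseudogenes.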

Additional observations from a re-analysis of the deposited data

How the results depend on the processing

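No paired analysis was possible because each group has 1 library and the labels give no replicate numbers. For the same reason no library could be left out. Scaling to library totals shifted the median log2 ratio of all genes by -0.157 in Old over Young and by -0.115 in WT over Young. In the library labelled cKO over WT, the 2 members that fell became 1 (Atp5e) with library totals, 7 at a bound of 1.5-fold and 0 with Young in place of WT, and the 0 that rose became 2 at 1.5-fold. In Old over Young, 0 higher became 1 (Atp5e) with median-of-ratios size factors and 5 at 1.5-fold, and 0 lower became 1 (Ndufs3) with library totals, 2 (Ndufa5 and Ndufaf1) at a minimum of 20 reads and 5 at 1.5-fold. In WT over Young, 0 higher became 2 at 1.5-fold. With transcript length in place of gene length, the ratio of summed levels became 0.974 for complex I, 0.769 for complex IV and 0.678 for complex V in the library labelled cKO over WT. It became 1.23, 1.08 and 1.49 for the same complexes in Old over Young, and 1.06 for complex III, 1.12 for IV and 1.16 for V in WT over Young. The cause was not tested. The median log2 ratio over members ranged from -0.20 to -0.13 in the library labelled cKO over WT. In Old over Young it was -0.18 with library totals and turned positive with median-of-ratios scaling (0.0045), structural subunits only (0.015), a minimum of 100 reads over both libraries (0.064) and WT in place of Young (0.056). In WT over Young it was -0.17 with library totals. Members under 100 reads, such as Ndufa5, are limited by depth.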
